A study of Mus musculus with 16 samples.

Results

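The genes described here drive the cell cycle, and they were listed by symbol as 16 genes of S phase, 22 genes of mitosis and 2 genes of G1. Of these 40 genes, 39 had a row in the deposited table of 12900 RNAs. Ccne2, a cyclin E gene of entry into S phase, had none, which left 15 S-phase genes. RNA-Seq was performed on NIH/3T3 cells, an established line of mouse fibroblasts, stably transduced with a doxycycline-inducible construct that encodes β-globin. Its 3′UTR is that of β-globin itself in the HBB line, the control, and that of Pkp4 in the Pkp4 cUTR line, where it was meant to compete with endogenous RNAs for localization. Cells of both lines received 1 μg/ml doxycycline for 3 days, were starved of serum, spent 2 h on filters with 3-μm pores, received LPA for 1 h and were fixed in 0.3% paraformaldehyde for 10 min. Protrusions (Ps), which had grown through the pores, and cell bodies (CB) were collected from separate filters, giving 4 groups of 4 replicates. Each construct is represented by 1 derived line, so the 3′UTR and any other difference between the derived lines cannot be told apart.

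In a cycling cell, S-phase genes are switched on when E2F factors are released from the retinoblastoma family, and their products load and unwind origins of replication and supply nucleotides. Mitotic genes are switched on later, through the MuvB complex, which binds the cell cycle homology region (CHR, TTTGAA) of their promoters, often with NF-Y at CCAAT boxes nearby. Fibroblasts deprived of serum leave the cycle in G1, and the mRNAs of both classes then fall.

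The promoters of the classes differed in these elements, and a few of them are shown because the classes are compared throughout. Windows of 250 bases before to 50 bases after the start of each gene were taken from RefSeq on GRCm38.p6, where 13 of the 15 S-phase genes, 17 of the 22 mitotic genes and 9065 of the 12900 RNAs had one. The E2F letters searched were TTTCCCGC, TTTCGCGC, TTTGCCGC and TTTGGCGC, the CHR was TTTGAA and the CCAAT box was CCAAT, each on both strands and counted also where it overlapped another. In the following windows the capitals mark the element, on the strand of the gene.
Mcm6, E2F letters at −110 from the start, chr1:128359799-128359824: gcgtatgctTTTGGCGCgaaaagtgc
Mcm3, E2F letters at 38, chr1:20820263-20820283: ttgggaagtTTTGGCGCcaag
Mcm5, E2F letters at −153, chr8:75109347-75109372: gccaagaacTTTCGCGCcaaaacgtc
Ccnb2, CHR letters at 4, chr9:70421536-70421559: ggcgcggtaTTTGAAtcgcggacc
Cdk1, CHR letters at −15, chr10:69352913-69352936: cgcggcgagTTTGAAactgctggc
Cdc20, CHR letters at −18, chr4:118437347-118437370: cagttgggtTTTGAAggagccaat
Rrm2, CCAAT box at −50, chr12:24708195-24708217: cagcggcgtCCAATgggaggcga
Mcm5 lies on the plus strand, as does Rrm2, and the others lie on the minus strand. E2F letters were in 6 of 13 S-phase promoters (46.2%), in 1 of 17 mitotic promoters (5.88%, that of Cdk1) and in 4.71% of all promoters. The CHR letters were in 11 of 17 mitotic promoters (64.7%), in 1 of 13 S-phase promoters (7.69%, that of Mcm2) and in 14% of all. CCAAT boxes were in 88.2% of the mitotic, 69.2% of the S-phase and 43.6% of all promoters. Among the genes called higher in Pkp4 cUTR cell bodies, described next, Ccnb2, Cdk1, Cdc20 and Bub1b held the CHR letters. Mcm3, Mcm6 and also Cdk1 held the E2F letters, and Ccnb1, Rrm1 and Rrm2 held CCAAT boxes without either. Ccna2, Cdc25c, Birc5 and Mcm4, also called, had no such element found, which includes genes without a window.

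The depth was 18660287 to 31260831 reads per sample, and 3 reads, taken as the smallest detectable level, corresponded to 0.089 to 0.176 CPM, the reads relative to the scaled size of the library, which covers counting error only. Replicate 4 of the cell bodies stood apart in both lines. On the first principal component, which held 48.6% of the variance, it scored 23.4 in HBB and 0.972 in Pkp4 cUTR, whereas the other cell bodies scored 27.7 to 47.5 and the protrusions −50 to −21.3. Of 14 fibroblast markers 11 had a row, with Col1a1 between 11.4 and 13.1 log2 CPM, whereas Thy1, Lum and Postn had none and Dcn lay between −0.713 and 1.35, and 6 of the 8 epithelial markers, among them Epcam, had no row. Reads on Ttk were as few as 2 to 13 per sample, those on Cenpe 5 to 47, on Bub1 7 to 36, on Cdc6 9 to 75 and on Mki67 16 to 71, so values of these 5 genes are the least precise. Annotated pseudogenes named after Ccnb1, Ccnb2, Pcna and Tyms exist, and exons of Cdk2, Cdk4, Ccna2, Ccnd1, Cdc20, Cdc25b, Cdc25c, Plk1, Prc1, Mcm7, Gins2 and Top2a overlap those of other genes. Since it is not stated how shared reads were divided or whether strand was used, values of these genes are uncertain to that degree.

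Per kilobase of the longest principal transcript, the level of the 39 RNAs in HBB cell bodies spanned from 7.41 log2 CPM per kb for Cdk4, the G1 kinase, to −4.34 for Cenpe, a kinesin of the kinetochore. Next below Cdk4 were Cdc25b at 4.97 (SD 0.18, n = 4), Pcna at 4.72 (SD 0.059), Cdc20 at 4.40 (SD 0.12) and Birc5 at 4.31 (SD 0.22), and of these neighbours Cdc20 and Birc5 lay closer together than their spread. At the lower end, Cenpf at −3.16, Bub1 at −3.11 and Mki67 at −3.58 were close to one another, and Ttk at −3.98 and Cenpe at −4.34 (SD 0.42) did not differ beyond their spread. The proliferation mark Mki67, which encodes Ki-67, was thus among the 5 lowest of these genes per length.

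Whether the level of these RNAs differed between the lines was asked first in cell bodies. Some S-phase and some mitotic RNAs were higher in Pkp4 cUTR cells. With the p-values of limma adjusted by Benjamini-Hochberg over all 12900 RNAs and a threshold of 0.05, 13 of the 39 genes were higher and 0 were lower, against 3.42% of all RNAs called higher and 5.55% called lower, and 27 passed an unadjusted p of 0.05, against 22.9% of all RNAs in either direction. The highest log2 fold changes were those of Rrm2 (0.88), Mcm4 (0.87), Ccna2 (0.79) and Mcm6 (0.74), from both classes, and differences were under 2-fold throughout. The fold change was above 0 for 38 of 39 genes, against 50.6% of all RNAs. The median log2 fold change was 0.49 for the 15 S-phase genes and 0.50 for the 22 mitotic genes, and 0.0030 for all RNAs. In bulk RNA, a larger share of cells in a phase and more RNA per such cell cannot be told apart.

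**Figure D1:**
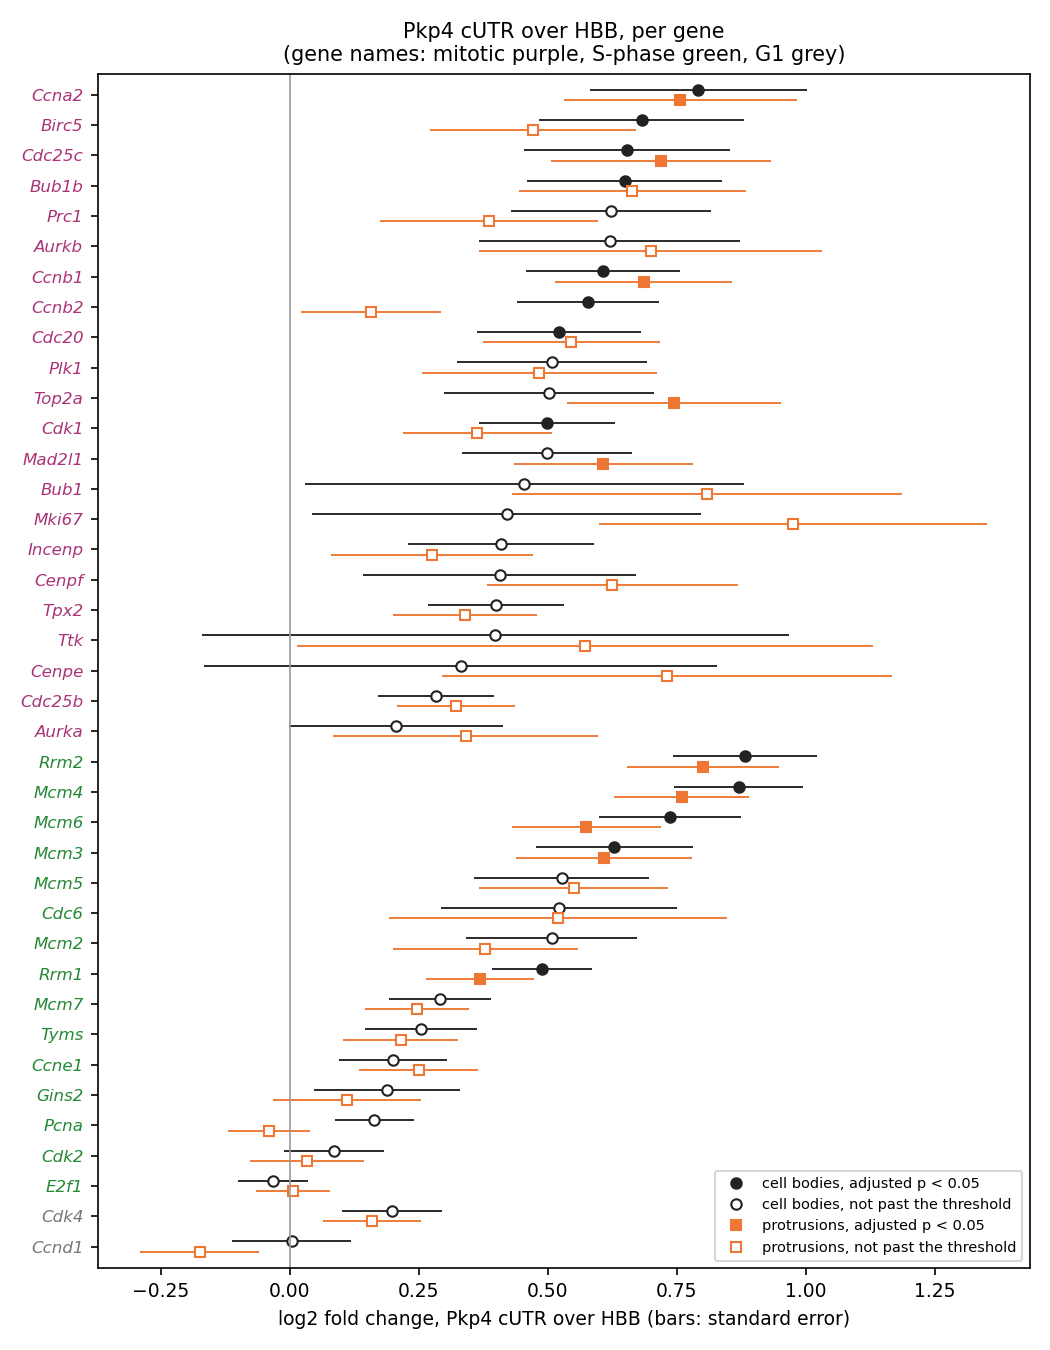
Log2 fold change of Pkp4 cUTR over HBB (x axis) for each of the 39 genes (y axis) in cell bodies (circles) and protrusions (squares), with the standard error as bars and filled symbols for an adjusted p under 0.05 from limma. In cell bodies 38 of 39 genes lie to the right of 0, with Rrm2 and Mcm4 farthest among S-phase genes and Ccna2 among mitotic genes, whereas E2f1, Cdk2 and Ccnd1 lie near 0.

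Of the S-phase genes, 5 were called higher in cell bodies. Rrm2, the inducible subunit of ribonucleotide reductase, was at 1.04, 1.40, 1.36 and 1.40 log2 CPM in HBB replicates 1 to 4 and at 1.94, 2.09, 2.30 and 2.40 in Pkp4 cUTR. Mcm4, a subunit of the MCM helicase, was at 2.23, 2.24, 2.33 and 1.95 in HBB and at 3.04, 2.83, 3.23 and 3.18 in Pkp4 cUTR. Every Pkp4 cUTR sample of both genes lay above every HBB sample, with log2 fold changes of 0.88 (SE 0.14, adjusted p = 0.000413) for Rrm2 and 0.87 (SE 0.13, adjusted p = 0.000174) for Mcm4. Mcm6, of the same helicase, was at 3.91, 3.70, 4.14 and 4.19 in HBB and at 4.63, 4.44, 4.87 and 4.94 in Pkp4 cUTR, again without overlap (0.74, SE 0.14, adjusted p = 0.0019). Rrm1, the large subunit of ribonucleotide reductase, was at 3.96, 3.78, 3.89 and 3.80 in HBB and at 4.15, 4.25, 4.45 and 4.55 in Pkp4 cUTR, a smaller but separate difference (0.49, adjusted p = 0.00292). Mcm3 was the remaining one (0.63, adjusted p = 0.0131). The other helicase and loading genes were not called, with values of 0.53 for Mcm5, 0.52 for Cdc6, which loads the helicase, 0.51 for Mcm2, 0.29 for Mcm7 and 0.19 for Gins2. Mcm2 itself was at 4.43, 4.58, 5.02 and 4.82 in HBB and at 4.79, 5.13, 5.62 and 5.35 in Pkp4 cUTR, and here the ranges overlapped although each Pkp4 cUTR sample lay above the HBB sample of the same number.

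Genes of entry into S phase differed little. E2f1, the activator of the class, was at 4.74, 4.71, 4.79 and 4.79 in HBB cell bodies and at 4.75, 4.61, 4.75 and 4.80 in Pkp4 cUTR cell bodies (−0.032, SE 0.067, adjusted p = 0.828). The HBB samples lay within the range of the Pkp4 cUTR samples. Cdk2, the kinase partner of cyclin E, had a log2 fold change of 0.086 (SE 0.096) and Ccne1, cyclin E1, one of 0.20 (SE 0.11). Pcna, the sliding clamp of DNA polymerase, was at 5.29, 5.37, 5.38 and 5.26 in HBB and at 5.41, 5.44, 5.44 and 5.67 in Pkp4 cUTR (0.16, SE 0.076, adjusted p = 0.207). Here all 4 Pkp4 cUTR samples lay above HBB, but the gene was not called. Of the G1 genes, Ccnd1, cyclin D1, was at 5.21, 5.13, 5.58 and 5.45 in HBB and at 5.32, 5.40, 5.45 and 5.21 in Pkp4 cUTR (0.0040, SE 0.12). Cdk4, its kinase, was at 8.33, 8.35, 8.49 and 8.63 in HBB and at 8.51, 8.54, 8.72 and 8.82 in Pkp4 cUTR (0.20, SE 0.097, adjusted p = 0.23), with overlapping ranges. Within the replicate numbers Cdk4 differed by 0.19, 0.19, 0.23 and 0.19, and with the number as a block shared by the lines it was called higher (adjusted p = 0.0424).

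Of the mitotic genes, 8 were called higher in cell bodies, 5 of them from the group of Cdk1, its cyclins and the Cdc25 phosphatases. Ccnb1, cyclin B1, was at 3.09, 3.24, 3.32 and 3.25 in HBB and at 3.57, 3.55, 4.11 and 4.13 in Pkp4 cUTR. Ccnb2, cyclin B2, was at 3.03, 2.89, 2.80 and 2.63 in HBB and at 3.32, 3.11, 3.55 and 3.72 in Pkp4 cUTR. Cdk1, their kinase, was at 4.70, 4.75, 4.82 and 4.93 in HBB and at 5.06, 4.98, 5.50 and 5.66 in Pkp4 cUTR. None of the 3 overlapped between the lines, and in each the Pkp4 cUTR samples 3 and 4 were the highest. The log2 fold changes were 0.61 for Ccnb1 (SE 0.15, adjusted p = 0.0142), 0.58 for Ccnb2 (SE 0.14, adjusted p = 0.0115) and 0.50 for Cdk1 (SE 0.13, adjusted p = 0.0226). Ccna2, cyclin A2, had the largest value of the class (0.79, adjusted p = 0.0225), and Cdc25c, which activates Cdk1, had 0.65 (adjusted p = 0.0477). The other 3 called genes were Birc5, the survivin subunit of the chromosomal passenger complex (0.68, adjusted p = 0.0372), Bub1b of the spindle checkpoint (0.65, adjusted p = 0.038) and Cdc20, the activator of the anaphase-promoting complex (0.52, adjusted p = 0.046).

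Several mitotic genes that were not called had values of similar size and a wide spread within the Pkp4 cUTR line. Top2a, the topoisomerase that decatenates chromosomes, was at 3.09, 2.97, 3.34 and 3.19 in HBB and at 3.38, 3.24, 3.93 and 4.09 in Pkp4 cUTR (0.50, SE 0.20, adjusted p = 0.14). Plk1, the polo kinase, was at 3.43, 3.43, 3.58 and 3.62 in HBB and at 3.49, 3.73, 4.51 and 4.37 in Pkp4 cUTR (0.51, SE 0.18, adjusted p = 0.095). Replicate 1 or 2 of the Pkp4 cUTR cell bodies fell within the HBB range for both. Aurka, the Aurora kinase of spindle poles, was at 3.43, 3.31, 3.78 and 3.79 in HBB and at 3.40, 3.33, 4.18 and 4.22 in Pkp4 cUTR (0.21, SE 0.21). Mki67 was at −0.28, −0.43, −0.10 and −0.18 in HBB and at −0.50, −0.68, 0.77 and 1.19 in Pkp4 cUTR (0.42, SE 0.38), with 2 samples below and 2 above every HBB sample. The SE of the 14 uncalled mitotic genes reached 0.57, for Ttk.

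In protrusions, 10 of the 39 genes were called higher in Pkp4 cUTR and 0 lower, against 2.89% and 4.26% of all RNAs, and 25 passed an unadjusted p of 0.05, against 22%. The fold change was above 0 for 37 genes, against 52.7% of all RNAs. The S-phase genes called were the same 5 as in cell bodies. Rrm2 was at 1.48, 1.41, 1.69 and 1.76 in HBB protrusions and at 2.35, 2.15, 2.58 and 2.44 in Pkp4 cUTR protrusions (0.80, SE 0.15, adjusted p = 0.00229). Mcm4 was at 2.24, 2.41, 2.80 and 2.60 in HBB and at 3.13, 3.25, 3.23 and 3.45 in Pkp4 cUTR (0.76, SE 0.13, adjusted p = 0.00133), and Mcm6 was at 3.97, 3.97, 4.39 and 4.39 in HBB and at 4.54, 4.62, 4.98 and 4.87 in Pkp4 cUTR (0.57, SE 0.14, adjusted p = 0.0196). The lines did not overlap in any of the 3. Rrm1 (0.37) and Mcm3 (0.61) completed the group. Of the mitotic genes, Ccnb1 was at 2.98, 2.95, 2.76 and 2.95 in HBB and at 3.23, 3.46, 3.77 and 3.97 in Pkp4 cUTR (0.69, SE 0.17, adjusted p = 0.0198), and Top2a was at 3.24, 3.33, 3.49 and 3.60 in HBB and at 3.64, 3.93, 4.47 and 4.61 in Pkp4 cUTR (0.74, SE 0.21, adjusted p = 0.0357). Both were again without overlap, and samples 3 and 4 were the highest of the Pkp4 cUTR line. Ccna2 (0.76), Cdc25c (0.72) and Mad2l1 of the spindle checkpoint (0.61) were also called, with adjusted p-values from limma of 0.0493, 0.0474 and 0.0393. The median was 0.37 for S-phase genes, 0.59 for mitotic genes and 0.015 for all RNAs.

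Taking the fractions together, 8 genes were called higher in both, namely Rrm1, Rrm2, Mcm3, Mcm4, Mcm6, Ccna2, Ccnb1 and Cdc25c, against 1.66% of all RNAs. The fractions come from separate filters of the same lines, so the comparisons share the lines but no sample. They are not independent repeats, since values also went with the replicate number. Ccnb1, for example, was highest in Pkp4 cUTR samples 3 and 4 in either fraction. Groups did not overlap, with Pkp4 cUTR higher, for 14 genes in cell bodies (6.49% of all RNAs) and for 15 in protrusions (6.31%). Cdk1 was not called in protrusions, at 4.52, 4.53, 4.54 and 4.48 in HBB and 4.67, 4.64, 5.13 and 5.09 in Pkp4 cUTR (0.36, SE 0.14, adjusted p = 0.139), although its samples did not overlap. The same held for Mki67, at 0.15, −0.07, 0.16 and −0.17 in HBB and 0.56, 0.52, 1.85 and 1.02 in Pkp4 cUTR (0.98, SE 0.38, adjusted p = 0.131). Plk1 was at 3.09, 2.64, 2.91 and 2.81 in HBB and at 3.18, 2.98, 3.45 and 3.77 in Pkp4 cUTR protrusions, and Aurka was at 2.78, 2.78, 2.84 and 3.05 in HBB and at 2.64, 2.95, 3.61 and 3.63 in Pkp4 cUTR, both with overlap and not called. Mcm2 was at 4.22, 4.35, 4.74 and 4.61 in HBB and at 4.80, 4.55, 4.85 and 5.20 in Pkp4 cUTR protrusions (0.38, adjusted p = 0.224), with overlap.

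The G1 and entry genes were not called in protrusions without a block. With the replicate number as a block shared by the lines, which called Cdk4 in cell bodies, it was not called in protrusions (adjusted p = 0.0996 from limma). It was called higher there with a block within each fraction (adjusted p = 0.0228). That block was added after the correlations between same-numbered samples were seen, and 9.14% of all RNAs were then called higher in protrusions. E2f1 was at 4.68, 4.58, 4.83 and 4.74 in HBB and at 4.68, 4.74, 4.77 and 4.66 in Pkp4 cUTR (0.0068), and Cdk4 was at 8.51, 8.41, 8.71 and 8.60 in HBB and at 8.65, 8.54, 8.89 and 8.80 in Pkp4 cUTR (0.16). Pcna was at 5.30, 5.26, 5.38 and 5.39 in HBB and at 5.23, 5.13, 5.34 and 5.47 in Pkp4 cUTR (−0.040, SE 0.079). All 3 overlapped between the lines. Ccnd1, whose protrusion samples are given with the fractions, had −0.17 (SE 0.12) and was not called.

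The number of calls rested in part on single libraries. Leaving out 1 sample at a time gave 5 to 18 genes called higher in cell bodies and 2 to 12 in protrusions, and none lower in any of these fits. In cell bodies the number was 5 without HBB replicate 1, 7 without HBB replicate 2, 8 without HBB replicate 3 and 7 without Pkp4 cUTR replicate 3 or replicate 4, and it was 5 without replicate 4 of both lines. In protrusions it was 3 without HBB replicate 1 or 2, 5 without HBB replicate 3 or 4, and 2 without Pkp4 cUTR replicate 3 or 4. Rrm1, Rrm2, Mcm4, Mcm6 and Ccnb2 in cell bodies, and Rrm2 and Mcm4 in protrusions, were called in all 16 of these fits. With the replicate number shared by the lines as a block, the numbers rose to 24 genes higher in cell bodies (8 S-phase, 15 mitotic and 1 G1, with 4.7% of all RNAs called higher) and 20 in protrusions (8 S-phase and 12 mitotic, with 4.47%), and 0 were lower. In that fit Mcm2, Mcm5, Top2a and Aurkb, among others, were called in both fractions, for example Mcm5 with an adjusted p of 0.000192 from limma in cell bodies, and Mcm6 had 0.73 (SE 0.067, adjusted p = 4.55e-06). Summed levels of cell type markers separated the lines only in part. In cell bodies that of the 2 epithelial markers with a row, Cdh1 and Krt8, was 3.57 to 3.89 log2 CPM in HBB and 4 to 4.35 in Pkp4 cUTR. That of 2 of 5 endothelial markers was 0.532 to 0.93 and −0.184 to 0.23. The leukocyte sum (4 of 8 markers) was 5.3 to 5.46 and 5.14 to 5.32, with overlap. That of 11 of 14 fibroblast markers was 14.9 to 15.2 in both. Of the epithelial, endothelial and leukocyte markers, only Cdh1 was called higher and only Cdh5 lower. Of all RNAs, 3.42% were called higher and 5.55% lower. In protrusions the epithelial sum was 3.42 to 3.88 in HBB and 3.87 to 4.29 in Pkp4 cUTR, and the endothelial −0.655 to −0.115 and −0.987 to 0.176, both with overlap. The leukocyte sum was 5.34 to 5.49 and 5.07 to 5.27, and the fibroblast 14.5 to 14.6 and 14.6. Of the epithelial, endothelial and leukocyte markers, only Krt8 was called higher there and only Csf1r lower (2.89% and 4.26% of all RNAs). The part of these markers in the result was not tested.

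S-phase and mitotic genes were then compared sample by sample. For each gene the log2 CPM was centred on its mean over the 16 samples, and the median over a class was taken as the score of a sample. The S-phase score was −0.31, −0.30, −0.03 and −0.09 in HBB cell bodies 1 to 4 and 0.06, 0.13, 0.44 and 0.42 in Pkp4 cUTR cell bodies. In protrusions it was −0.39, −0.38, −0.02 and −0.07 in HBB and −0.02, −0.02, 0.29 and 0.35 in Pkp4 cUTR. In either fraction samples 3 and 4 were higher than samples 1 and 2 in both lines. The mitotic score was −0.32, −0.40, −0.28 and −0.28 in HBB cell bodies and −0.11, −0.11, 0.54 and 0.72 in Pkp4 cUTR cell bodies, and it was −0.33, −0.28, −0.19 and −0.22 in HBB protrusions and −0.02, 0.09, 0.54 and 0.59 in Pkp4 cUTR protrusions. Here the HBB samples lay close together, with an SD of 0.06 in either fraction, and the Pkp4 cUTR samples spread widely, with an SD of 0.43 in cell bodies and 0.31 in protrusions.

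**Figure D2:**
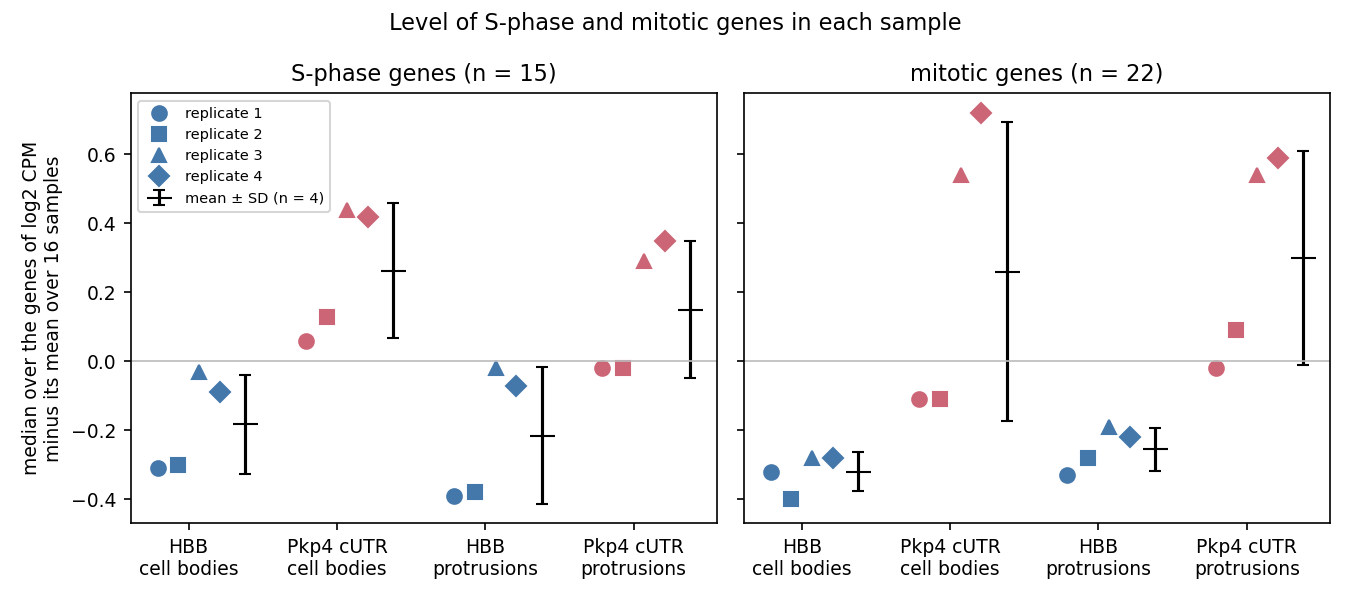
Score of each sample (y axis, the median over the genes of log2 CPM minus the mean of the gene over 16 samples) for S-phase genes (left, 15 genes) and mitotic genes (right, 22 genes) in the 4 groups (x axis), with the replicate number as symbol and the mean ± SD of each group in black. The S-phase scores of samples 3 and 4 lie above those of samples 1 and 2 in every group, whereas the mitotic scores of HBB lie between −0.40 and −0.19 and those of Pkp4 cUTR between −0.11 and 0.72.

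Samples of the lines that share a number varied together across RNAs, so the difference between the lines was also taken within each number. The median over S-phase genes of Pkp4 cUTR minus HBB was 0.33, 0.46, 0.56 and 0.41 in cell bodies for numbers 1 to 4, and 0.32, 0.30, 0.27 and 0.37 in protrusions. The median over mitotic genes was 0.24, 0.24, 0.79 and 0.90 in cell bodies, and 0.21, 0.27, 0.82 and 0.71 in protrusions. The SD over the numbers was 0.10 and 0.04 for the S-phase medians and 0.35 and 0.31 for the mitotic medians, which were larger in numbers 3 and 4 than in 1 and 2. Whether the classes differ in this was not tested. Mitotic genes were higher in Pkp4 cUTR for 18, 18, 22 and 22 of 22 genes in cell bodies and for 20, 20, 22 and 22 in protrusions. Mcm6, as an S-phase example, differed by 0.72, 0.74, 0.73 and 0.75 in cell bodies, and Rrm2 by 0.90, 0.69, 0.94 and 0.99. Ccna2 differed by 0.24, 0.49, 1.24 and 1.24, Bub1b by 0.21, 0.20, 1.15 and 1.06, and Mki67 by −0.22, −0.25, 0.87 and 1.37. The medians over all RNAs lay between −0.01 and 0.04 in every number. The labels do not say what a replicate number marks.

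**Figure D3:**
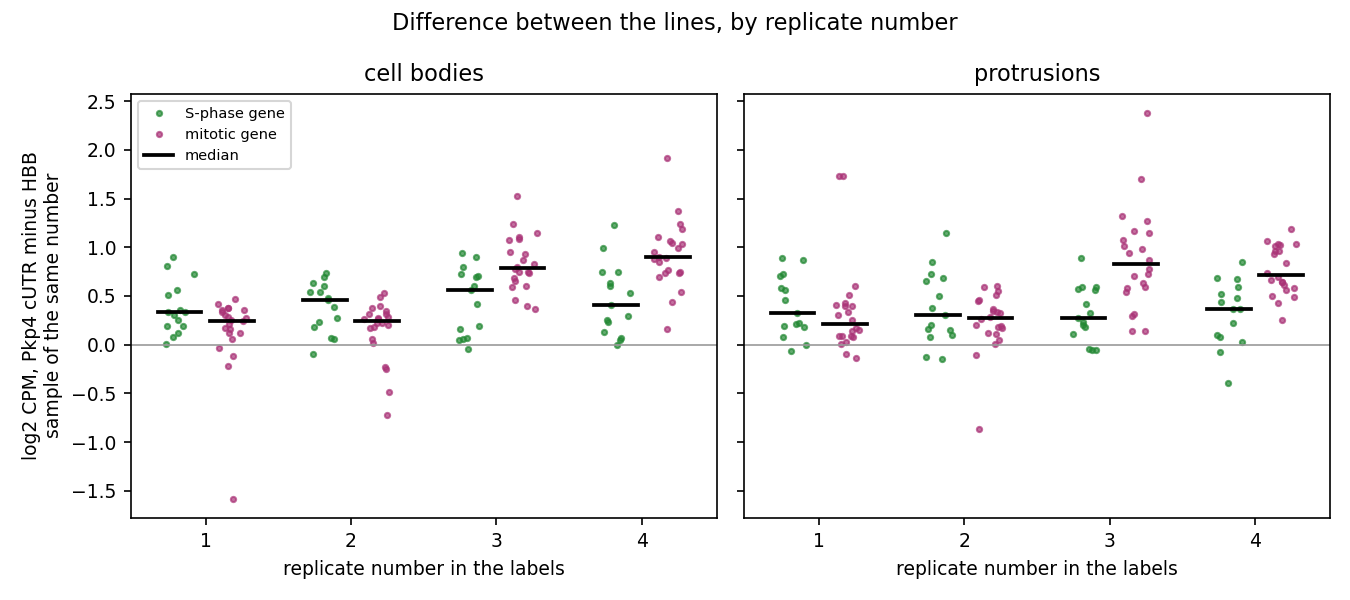
Difference in log2 CPM between the Pkp4 cUTR and the HBB sample of the same replicate number (y axis) for each number (x axis), in cell bodies (left) and protrusions (right). Each point is 1 gene, green for S phase and purple for mitosis, and the black lines are the medians, which stay between 0.27 and 0.56 for S-phase genes and go from 0.21 to 0.90 for mitotic genes.

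Genes of the same pathways outside the list of 40 showed the same directions in counts. Their lists were also chosen with earlier results of these data known, so they are no outside check. Of 67 further S-phase genes, 19 were called higher in Pkp4 cUTR cell bodies (3.42% of all RNAs) and 12 in protrusions (2.89%), and none lower (5.55% and 4.26%). Among them were E2f7, a repressor of E2F targets (0.64 in cell bodies, adjusted p = 0.00494), Pold3, a subunit of DNA polymerase delta (0.40 in cell bodies, adjusted p = 0.00503), and Lig1, the ligase of Okazaki fragments (0.55 in protrusions, adjusted p = 0.0212). Of 97 further mitotic genes with a row, 15 were higher in cell bodies and 6 in protrusions, and none lower. Those with the smallest p in cell bodies were Racgap1 of cytokinesis (0.55), Hmgb2 (0.72) and Kif22 (0.81), and Racgap1 was also called in protrusions (0.53). The medians were 0.40 and 0.33 for S-phase genes and 0.40 and 0.40 for mitotic genes in cell bodies and protrusions. Within replicate numbers 1 to 4 the further mitotic genes had medians of 0.15, 0.17, 0.59 and 0.67 in cell bodies and 0.19, 0.22, 0.53 and 0.50 in protrusions, and the further S-phase genes had 0.34, 0.23, 0.39 and 0.49 and then 0.26, 0.20, 0.44 and 0.37. Of 32 genes of G1 and of cell cycle arrest, 1 was higher and 2 were lower in cell bodies, and 0 were higher and 3 lower in protrusions, shares near those of all RNAs in cell bodies (3.42% higher and 5.55% lower) and against 2.89% and 4.26% in protrusions. The genes called in either direction are named for completeness. Gas1 was the gene called higher in cell bodies (0.32, adjusted p = 0.0378 from limma). Cdkn2d, an inhibitor of Cdk4, was lower in both fractions (−0.53, adjusted p = 0.0142, and −0.63, adjusted p = 0.012), as was Ccnd3, cyclin D3 (−0.24 and −0.23). In protrusions the Cdk4 inhibitor gene Cdkn2c was lower too (−0.35).

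Whether these RNAs differed between protrusions and cell bodies was asked within each line. In HBB cells 5 of the 39 genes were higher in protrusions and 6 were lower, against 28.3% of all RNAs called higher and 28.9% called lower, and in Pkp4 cUTR cells 7 were higher and 9 lower, against 28.2% and 28.5%. In either direction, 11 and 16 of the 39 were called, against 57.3% and 56.7% of all RNAs. None of them passed a fold change of 2 with an unadjusted p under 0.05 in HBB (4.54% of all RNAs were higher by this rule), and Bub1 and Cenpe did in Pkp4 cUTR (5.07%). The median log2 fold change of protrusions over cell bodies was 0.0053 for S-phase and 0.16 for mitotic genes in HBB, and −0.059 and 0.082 in Pkp4 cUTR, with 0.0060 and 0.011 for all RNAs. Of the check genes, all 7 protrusion RNAs were called higher in HBB (median 2.13), and 6 in Pkp4 cUTR. Of 4 nuclear RNAs with a row, Malat1 and Neat1 were lower in protrusions of both lines, Mirg was higher in both and Kcnq1ot1 was not called.

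**Figure D4:**
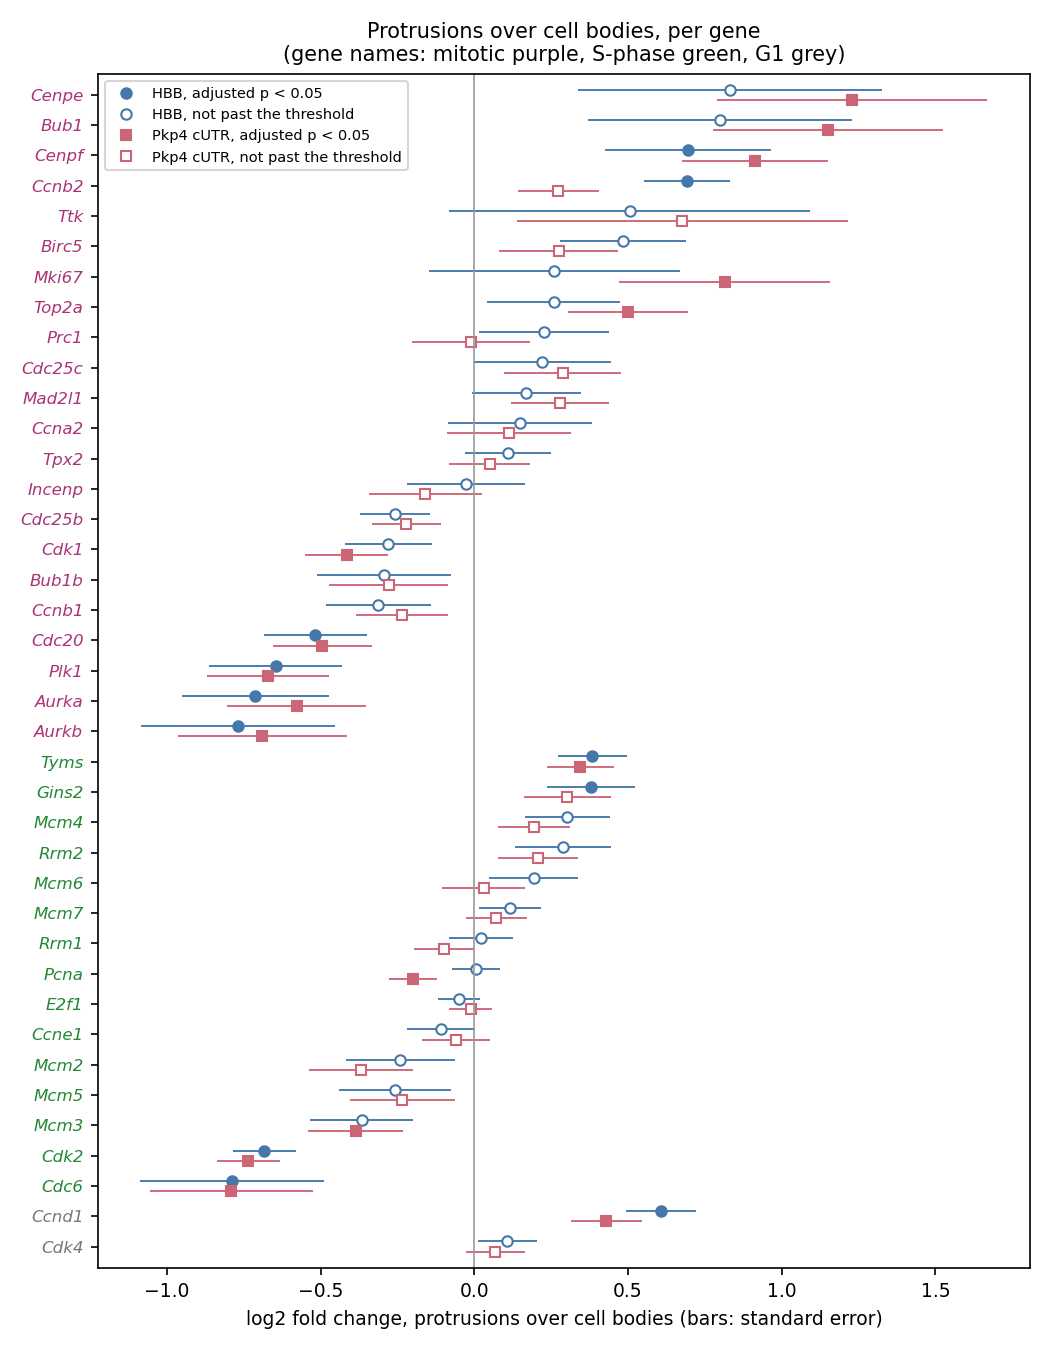
Log2 fold change of protrusions over cell bodies (x axis) for each of the 39 genes (y axis) in HBB (circles) and Pkp4 cUTR (squares), with the standard error as bars and filled symbols for an adjusted p under 0.05 from limma. Genes of both classes lie on either side of 0, with Aurkb, Aurka, Plk1, Cdc20, Cdc6 and Cdk2 below 0 and Cenpf, Tyms and Ccnd1 above 0 in both lines.

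The genes lower in protrusions of both lines were Cdk2, Cdc6, Plk1, Aurka, Aurkb and Cdc20, against 25.3% of all RNAs lower in both. Cdk2 was at 4.19, 4.25, 4.32 and 4.54 log2 CPM in HBB protrusions and 4.88, 5.01, 5.10 and 5.05 in HBB cell bodies, and at 4.41, 4.11, 4.27 and 4.64 against 4.95, 5.06, 5.26 and 5.10 in Pkp4 cUTR. The fractions did not overlap in either line, and the log2 fold changes were −0.68 (SE 0.10, adjusted p = 2.17e-05) and −0.74 (SE 0.10, adjusted p = 1.19e-05). Plk1, whose values are given above for each fraction, had −0.65 (SE 0.22, adjusted p = 0.016) in HBB and −0.67 (SE 0.20, adjusted p = 0.00782) in Pkp4 cUTR. Aurka had −0.71 (adjusted p = 0.0161) and −0.58 (adjusted p = 0.0373), and Aurkb, the Aurora kinase of the chromosomal passenger complex, had −0.77 (adjusted p = 0.0442) and −0.69 (adjusted p = 0.0396). In HBB none of these 3 kinases overlapped between the fractions, and in Pkp4 cUTR all 3 did. Within every replicate number, however, all 3 were lower in protrusions of both lines. Aurka, for example, differed by −0.76, −0.38, −0.56 and −0.59 in Pkp4 cUTR. With a block of the replicate number within each line, limma gave Plk1, Aurka and Aurkb adjusted p-values of 0.000825, 0.000537 and 0.000813 in Pkp4 cUTR. In that fit 28.2% of all RNAs were called lower. By the rule used, however, the fractions of Pkp4 cUTR were not paired, with same-numbered correlations of −0.362 to 0.00248 across RNAs. Cdc20 was at 4.93, 4.61, 4.64 and 4.69 in HBB protrusions and 5.09, 5.20, 5.31 and 5.36 in cell bodies (−0.52), and at 5.07, 4.98, 5.58 and 5.43 against 5.43, 5.38, 6.11 and 6.12 in Pkp4 cUTR (−0.49). Cdc6 was at −0.61, −1.11, 0.01 and 0.60 in HBB protrusions and 0.31, 0.21, 0.55 and 1.04 in cell bodies (−0.79), and at 0.11, 0.04, 0.57 and 0.21 against 0.82, 0.75, 1.35 and 1.17 in Pkp4 cUTR (−0.79). The Cdc6 fractions overlapped in HBB and not in Pkp4 cUTR. In Pkp4 cUTR, Cdk1 (−0.41, adjusted p = 0.0144), Mcm3 (−0.39) and Pcna (−0.20) were also lower. Incenp and Birc5, which form the passenger complex with Aurkb, were not lower, with −0.027 and 0.48 in HBB and −0.16 and 0.27 in Pkp4 cUTR.

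The genes higher in protrusions of both lines were Ccnd1, Tyms and Cenpf, against 24.1% of all RNAs. Ccnd1 was at 5.79, 5.71, 6.26 and 6.04 in HBB protrusions, above every HBB cell body (0.61, SE 0.12, adjusted p = 0.000203), and at 5.86, 5.63, 5.86 and 5.75 in Pkp4 cUTR protrusions, above every cell body of that line (0.43, SE 0.12, adjusted p = 0.00414). Tyms, thymidylate synthase, was at 4.10, 4.06, 4.34 and 4.08 in HBB protrusions and 3.60, 3.67, 3.82 and 3.98 in cell bodies (0.38, adjusted p = 0.00683), and at 4.28, 4.14, 4.54 and 4.45 against 3.90, 3.89, 4.01 and 4.27 in Pkp4 cUTR (0.34, adjusted p = 0.0118). It overlapped between the fractions only in Pkp4 cUTR. Cenpf, a large kinetochore protein, was at 1.01, 1.02, 0.99 and 0.96 in HBB protrusions and 0.52, 0.12, 0.03 and 0.60 in cell bodies (0.70, SE 0.27, adjusted p = 0.0339), and at 1.18, 1.48, 2.06 and 1.79 against 0.65, −0.11, 1.15 and 1.14 in Pkp4 cUTR (0.91, SE 0.24, adjusted p = 0.00331). The fractions of Cenpf did not overlap in either line.

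Other genes were called higher in protrusions of 1 line. In HBB these were Ccnb2, at 3.53, 3.51, 3.64 and 3.48 in protrusions and thus above all 4 cell bodies (0.69, SE 0.14, adjusted p = 0.000393), and Gins2, a subunit of the replication fork helicase, at 3.90, 3.96, 4.28 and 4.31 against 3.62, 3.44, 3.96 and 3.88, with overlap (0.38, adjusted p = 0.0293). In Pkp4 cUTR they were Top2a (0.50, adjusted p = 0.0363), Mki67 (0.81, adjusted p = 0.0498), Bub1 and Cenpe. Bub1, a kinase of the spindle checkpoint, was at 0.17, −0.45, 0.88 and 0.39 in protrusions and −1.22, −1.82, −0.16 and −0.37 in cell bodies (1.15, SE 0.38, adjusted p = 0.014). Cenpe was at −0.08, −0.34, 1.26 and 0.07 in protrusions and −2.40, −1.33, −0.27 and 0.15 in cell bodies (1.23, SE 0.44, adjusted p = 0.0229). Both overlapped between the fractions and had few reads. Within replicate numbers 1 to 4, Bub1 differed by 1.39, 1.37, 1.04 and 0.76, and Cenpe by 2.32, 1.00, 1.53 and −0.08.

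These calls depended on how the libraries were scaled. With reads scaled to each total instead of by the deposited factors, which were 0.828 to 1.11 times the totals, the median of all RNAs moved to −0.23 in HBB and −0.25 in Pkp4 cUTR, and the split of higher against lower genes went from 5 and 6 to 2 and 15 in HBB and from 7 and 9 to 2 and 17 in Pkp4 cUTR. All RNAs shifted likewise. Of the 12900, 1940 were then called higher and 5614 lower in HBB, and 1797 and 5867 in Pkp4 cUTR. Under total scaling Ccnd1 and Ccnb2 were still higher in HBB, Bub1 and Cenpf in Pkp4 cUTR. Without HBB protrusion replicate 2 the number called in HBB was 7, with 3 lower, and higher genes were 3 without HBB cell body replicate 2 or HBB protrusion replicate 3 or 4. In Pkp4 cUTR the number was 10 without cell body replicate 3 or protrusion replicate 2, with 3 lower in each, and 4 were lower without protrusion replicate 1. Higher genes in that line were 4 and 3 without cell body replicates 1 and 2, 3 without protrusion replicate 3, and 11 higher with 5 lower without cell body replicate 4. Cdk2, Ccnb2, Ccnd1, Cdc20, Aurka and Tyms in HBB and Cdk2, Ccnd1, Plk1, Cenpf and Tyms in Pkp4 cUTR were called in all 16 fits that leave out 1 sample. The summed level of nuclear RNAs was 9.18 to 9.5 log2 CPM in HBB cell bodies and 7.34 to 8.31 in HBB protrusions, and 8.9 to 9.08 and 7.57 to 8.12 in those of Pkp4 cUTR, and its part in these differences was not tested.

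Among mitotic genes, the fraction difference went with the GC content of the transcript. Across the 22 genes Spearman's rho was −0.67 in HBB and −0.752 in Pkp4 cUTR, and across the 15 S-phase genes it was −0.2 and −0.0357. Across the 10955 RNAs matched to a transcript (84.9%) it was −0.399 and −0.388. These correlations are across genes measured in the same libraries, which are not independent replicates. The genes higher in Pkp4 cUTR protrusions had a median GC content of 43.36% and a median length of 5221 bases, and those lower had 51.39% and 2199 bases. In HBB the higher genes had 49.31% and 3740 bases and the lower 51.95% and 2074, while those not called had 47.78% GC. For length, rho was 0.354 in HBB and 0.486 in Pkp4 cUTR across mitotic genes. Across all matched RNAs it was of opposite sign, −0.26 and −0.227. Plk1 (56.0%), Cdc20 (55.6%) and Aurkb (52.5%) were among the GC-rich genes and Bub1 (41.0%), Cenpe (42.9%) and Cenpf (43.3%) among the GC-poor ones.

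**Figure D5:**
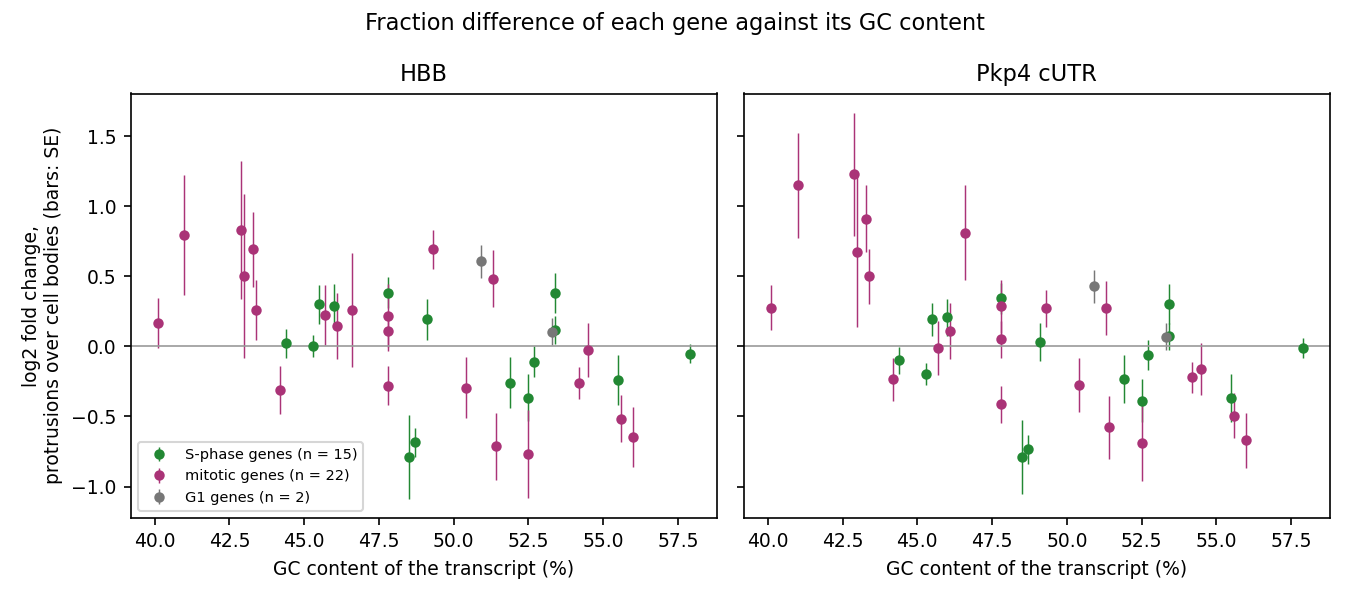
Log2 fold change of protrusions over cell bodies (y axis, bars are the standard error) against the GC content of the longest principal transcript (x axis, percent) in HBB (left) and Pkp4 cUTR (right), with 1 point per gene. Mitotic genes (purple) fall from left to right in both lines, with rho −0.67 and −0.752, and S-phase genes (green) show rho −0.2 and −0.0357.

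Finally, the protrusion to cell body ratio was compared between the lines, as log2(Diff FC), the log2 fold change in Pkp4 cUTR minus that in HBB. By limma's adjusted p, 0 of the 39 genes differed, and 0% of all RNAs were called. At an unadjusted p under 0.05 from limma there was 1 gene, Ccnb2 (−0.42, SE 0.19), against 2.33% of all RNAs. Its fraction difference was 0.69 in HBB and 0.27 in Pkp4 cUTR, and accordingly its difference between the lines was 0.58 in cell bodies and 0.16 in protrusions. The median log2(Diff FC) was −0.052 for S-phase genes and 0.052 for mitotic genes, and 0.0054 for all RNAs. The standard error of a gene ran from 0.098 for E2f1 to 0.80 for Ttk, and the difference of Ccnb2, although more than 2 such errors, was not called. The largest positive values, 0.55 for Mki67, 0.40 for Cenpe and 0.35 for Bub1, had standard errors of 0.53, 0.66 and 0.57.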

How the data were processed

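RNA-Seq was analysed in 16 samples, 4 replicates each of protrusions and cell bodies of the HBB and Pkp4 cUTR lines, grouped by the labels. The authors aligned reads to mm10 with STAR (2.4.2a, 2-pass) and counted them per gene with Rsubread. They deposited log2 CPM from limma-voom (limma 3.26.1 per the labels), (reads + 0.5) over a scaled library size + 1, for 12900 RNAs. The paper gives a cutoff of log-CPM above 0.5 in at least 1 sample. The deposited rows do not all meet it on the log2 scale, since Ttk reached at most −0.66. The scaling method is not stated. Whole reads were recovered for 100% of values (within 0.01). Here limma 3.58.1 (R 4.3.3) was fitted to the deposited log2 values with voom weights and one mean per group over all samples, and p-values from its moderated test were adjusted by Benjamini-Hochberg over all RNAs. The procedure was checked on simulated data drawn without an effect of the replicate number, so that check does not cover such an effect. The study describes the replicates as independent samples, without saying whether they were separate cultures, and p-values measure the spread between these samples.

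The 40 genes and the wider lists were chosen with earlier results of these data known. Values in every sample are given for the best-known genes and, in each comparison, for the 5 genes with the smallest p in each direction, and of the wider lists at most 3 are named, some of which are not reported here. Samples of the lines that share a number varied together (correlations of 0.331 to 0.628 between cell bodies and 0.196 to 0.392 between protrusions across 10154 RNAs), so the replicate number, which comes from the sample titles, was used as a block in a second fit. Protrusions and cell bodies of a line were not taken as paired, because not every same-numbered correlation exceeded 0.1. In HBB these were 0.0455 to 0.389, with a mean of 0.178 against −0.0621 for unlike numbers. In Pkp4 cUTR they were −0.362 to 0.00248, with a mean of −0.161 against 0.0611. The mitotic scores of Pkp4 cUTR were nonetheless high in replicates 3 and 4 of both fractions. Fraction comparisons without a block include this spread between numbers. Positions, lengths, GC content and overlaps came from GENCODE vM21 (GRCm38). Alternatives were other scalings, weights, filters, thresholds, blocks and leaving out samples.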

Additional observations from a re-analysis of the deposited data

Results flagged for a closer look

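In each group of 4 samples, a sample was marked when its gap to the nearest other sample exceeded the share of the range of the group given by Dixon's 95% critical value. Of 156 combinations of a gene and a group, 4 were marked, whereas chance alone marks about 1 in 20. Ccnb1 in HBB protrusions was at 2.76 log2 CPM in replicate 3 and at 2.95 to 2.98 in the others. Tyms in the same sample was at 4.34, against 4.06 to 4.10. Rrm2 in HBB cell bodies was at 1.04 in replicate 1 and at 1.36 to 1.40 in the others. Pcna in Pkp4 cUTR cell bodies was at 5.67 in replicate 4, against 5.41 to 5.44. Without that replicate the adjusted p of Pcna for protrusions over cell bodies no longer passed 0.05.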

How the results depend on the processing

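Between the lines no gene was called lower in any fit that leaves out 1 sample, and the counts of higher genes moved most. In cell bodies (13 genes) the count was 7 without voom weights and also with only the compared groups fitted, 5 without replicate 4 of both cell bodies, 27 at an unadjusted p under 0.05 and 0 at a fold above 2. In protrusions (10 genes) it was 4 with reads scaled to each total, 25 at an unadjusted p and 0 at a fold above 2. With the replicate block shared by the lines the counts were 24 and 20, and with a replicate block within each fraction, added after the correlations were seen, 26 and 25, while the share of all RNAs called higher rose to 10.6% and 9.14%. The wider lists (37 and 21 called) gave 23 in cell bodies without weights, 59 and 49 with the shared replicate block and 91 and 70 with the block within fractions. The S-phase median was 0.309 and 0.24 on log2(CPM + 1), 0.391 and 0.309 above a mean log2 CPM of 0.5, and 0.324 in protrusions scaled to totals.

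For protrusions over cell bodies in HBB (5 higher, 6 lower), 17 genes with 10 lower were called with only the compared groups, 17 (2 and 15) with total scaling, 20 (9 and 11) with the shared replicate block, 18 with 11 lower with a replicate block within each line, 0 at a fold above 2, and 3 higher at a fold above 1.5. In Pkp4 cUTR (7 and 9), 4 were higher above a mean log2 CPM of 0.5, 9 (4 and 5) with only the compared groups, 2 and 17 with total scaling, 11 and 5 without replicate 4 of both cell bodies, 2 (2 and 0) at a fold above 2, and 8 (4 and 4) at a fold above 1.5. Total scaling put the S-phase and mitotic medians at −0.232 and −0.081 in HBB and at −0.325 and −0.181 in Pkp4 cUTR, and turned Pcna in HBB to −0.232. With that scaling 5614 of the 12900 RNAs were called lower in HBB and 5867 in Pkp4 cUTR. The mitotic median in Pkp4 cUTR was −0.085 above a mean log2 CPM of 0.5. For the difference of enrichment, 1 gene, lower, passed an unadjusted p, and the mitotic median was 0.149 without replicate 4 of both cell bodies. By the rule used, the pairing check did not pair protrusions with cell bodies, although the correlations within HBB numbers were all above 0. The causes of these changes were not tested.

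Leaving out 1 sample gave 5 to 18 genes between the lines in cell bodies (0 lower; S-phase median 0.371 to 0.558, mitotic 0.376 to 0.676) and 2 to 12 in protrusions (0.246 to 0.425 and 0.445 to 0.663). It gave 7 to 12 genes in HBB (3 to 6 higher, 3 to 7 lower, medians −0.0174 to 0.0292 and 0.0987 to 0.179), 10 to 16 in Pkp4 cUTR (3 to 11 higher, 3 to 11 lower, medians −0.098 to −0.00688 and −0.0475 to 0.226), and 0 for the difference of enrichment (medians −0.132 to 0.0189 and −0.0919 to 0.18). Depth limits Ttk, Cenpe, Bub1, Cdc6 and Mki67 most.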
